A study of Mus musculus with 4 samples.

Results

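Antiviral interferon-stimulated genes encode the proteins with which a cell senses, blocks and marks viruses, and 34 of them were examined here in mouse T helper 17 (Th17) cells. They were chosen by name and function, as type I interferon targets that act as nucleic acid sensors, effectors or protein modifiers, and interferon regulatory factors, STAT factors and the guanylate-binding and immunity-related GTPases were not among them. All 34 were found among the 23356 gene rows of the authors' deposited table. The cells came from wild type C57BL/6 mice 6 to 8 weeks old and spent 48 h in Th17 culture in vitro. The control group of 2 libraries is titled veh and carries no treatment in its labels, and the other 2 libraries came from cells given SAA1 (recombinant murine serum amyloid A1), which the liver makes in the acute phase, at a labelled dose of 2 ng/ml. The labels do not say whether the libraries of a group came from separate mice or cultures, so the p-values measure a spread between libraries that may be technical. Each gene has 1 value per group in FPKM, a read-fragment level scaled for transcript length and library size, made by the authors from both libraries. No value per library and no read depth can therefore be given.

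Type I interferons signal through the receptor chains Ifnar1 and Ifnar2 and the kinases Jak1 and Tyk2 to a transcription factor complex that holds Stat2 and Irf9 and binds the interferon-stimulated response element (ISRE) of its target genes. The targets form an inducible defence: some detect viral RNA or DNA, some degrade RNA, stop translation or trap virus particles, and others attach ubiquitin, ISG15 or ADP-ribose to proteins. Many are also expressed at a low level in cells that have met no virus, T cells included.

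Most of the antiviral genes had lower values with SAA1, and those that passed the test included both a sensor and effectors. Ifih1, the RNA sensor MDA5, fell from 22.7 to 10.7 FPKM, Ifit1, which binds the ends of foreign RNA, from 2.35 to 0.875 FPKM, and Oas3, an oligoadenylate synthase, from 5.98 to 2.84 FPKM. Ifitm3, which hinders the fusion of viruses with endosomes, moved the other way, from 9.21 to 20.6 FPKM. The authors tested 25 of the 34 members. At an adjusted p under 0.05 in the authors' deposited table, 7 were called lower and 1 higher, 17 were tested and not called, and 9 were not tested. Over all 11481 tested genes, 2.55% were called lower and 3.97% higher by the same rule. Of the 25 tested members, 12 were lower with an unadjusted p under 0.05 in the authors' deposited table, against 7.62% of all tested genes. Whatever the test, 22 of the 25 had the lower value with SAA1, against 53.2% of all tested genes, and the 9 untested members did so as well. The median log2 ratio of SAA1 over vehicle (FPKM plus a pseudocount of 0.1) was -0.32 over the 25 members and -0.02 over all tested genes. In bulk RNA, fewer cells expressing a gene and less RNA per cell cannot be told apart.

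**Figure D1:**
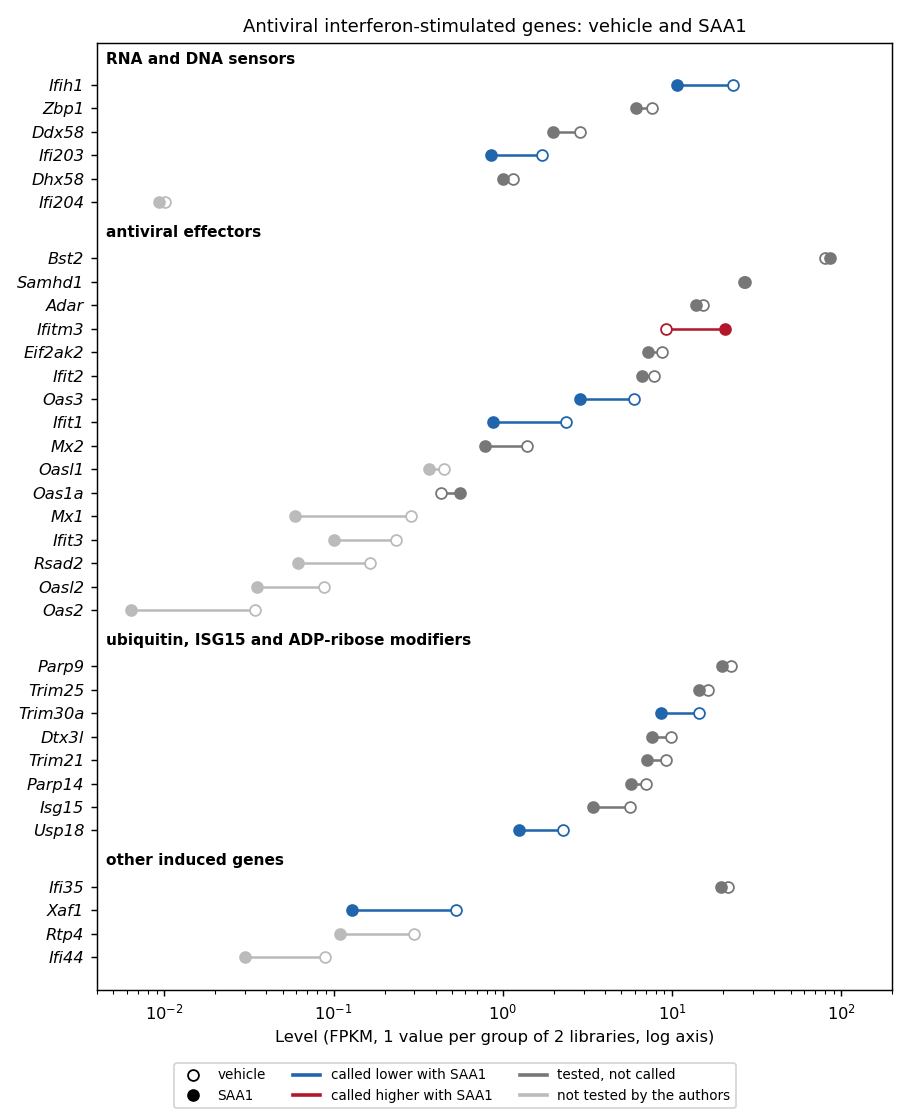
Level of each of the 34 members in FPKM on a log axis, ordered by role and by the vehicle value, with an open point for vehicle and a filled point for SAA1 (1 value per group, so there are no error bars). Filled points lie to the left of open ones for all genes except Bst2, Ifitm3 and Oas1a.

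Among the sensors, 2 of the 5 tested genes were called lower and 0 higher, and all 5 had the lower value with SAA1. Over all tested genes, 2.55% were called lower, 3.97% were called higher and 53.2% had the lower value. Ifih1 recognises long double-stranded RNA in the cytoplasm. Its fall was 2.13-fold, which is -1.09 ± 0.20 as a log2 ratio (± gives the SE that the deposited test statistic implies), and the authors' deposited table lists an adjusted p of 0.00191. That p is the smallest adjusted value the table holds, and it is shared by 300 genes. Ifih1 spans chromosome 2 from 62595793 to 62646255 (mm10). Ddx58, the sensor RIG-I, detects RNA with a terminal triphosphate and acts through the same adaptor. It was at 2.84 and 1.97 FPKM, a log2 ratio of -0.53 ± 0.26, and the authors' deposited table puts it just outside the threshold, at an adjusted p of 0.0578. Dhx58, the related helicase LGP2, which lacks the signalling domains of both others, was at 1.15 and 0.999 FPKM (log2 ratio -0.20 ± 0.38).

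The remaining sensors bind other nucleic acids. Ifi203, a member of the HIN-200 family of DNA-binding proteins on chromosome 1, fell from 1.71 to 0.856 FPKM (log2 ratio -1.0 ± 0.34; adjusted p 0.00471 in the authors' deposited table). Its relative Ifi204, a DNA sensor of macrophages, was listed at 0.0101 and 0.00924 FPKM, without a test. Zbp1, which binds nucleic acids in the Z form and can start necroptosis, was at 7.63 and 6.11 FPKM (log2 ratio -0.32 ± 0.33; adjusted p 0.593 in the authors' deposited table). Near-identical copies are common in the HIN-200 family, so reads may have been split among its genes.

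The effectors were the most mixed group: of 16 genes, 10 were tested, 2 were called lower and 1 higher (2.55% and 3.97% of all tested genes). The IFIT proteins bind viral RNA and hold back its translation, and their genes lie side by side on chromosome 19. Ifit1, from 34640889 to 34650009 (mm10), fell 2.68-fold, a log2 ratio of -1.42 ± 0.35, and the authors' deposited table lists an adjusted p of 0.00191. Ifit2 was the most abundant of the family at 7.85 and 6.64 FPKM and was not called (log2 ratio -0.24 ± 0.22). Ifit3 was listed at 0.232 and 0.10 FPKM, without a test. The values of Ifit1 and Ifit2 therefore differ in size of change by more than their SEs, but that difference between genes was not tested.

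The oligoadenylate synthases are activated by double-stranded RNA and make short chains of adenylate that act as a second messenger. Oas3, on chromosome 5 from 120753098 to 120777659 (mm10), fell 2.10-fold, a log2 ratio of -1.07 ± 0.24 (adjusted p 0.00191 in the authors' deposited table). Oas1a was at 0.431 and 0.555 FPKM, 1 of 3 tested members with the higher value with SAA1, and its log2 ratio of 0.37 ± 0.58 allows a change in either direction. Oas2 was listed at 0.0345 and 0.00639 FPKM, and the synthase-like genes Oasl1 and Oasl2, the first of which restrains interferon production, at 0.45 and 0.364 FPKM and at 0.0873 and 0.0354 FPKM. None of these last 3 was tested.

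Effectors that act on the particle or its entry differed: Ifitm3 was called higher, while Bst2 and Mx2 were not called, with Mx2 at the lower value with SAA1. Ifitm3, on chromosome 7 from 141009590 to 141010744 (mm10), rose 2.24-fold, a log2 ratio of 1.16 ± 0.31, and the authors' deposited table lists an adjusted p of 0.00191. Its neighbour Ifitm2, which encodes a closely related protein, was at 26.8 and 23.9 FPKM (log2 ratio -0.16 ± 0.26), and reads shared between the pair could have been assigned to either. Bst2, the surface protein tetherin that holds budding virions to the cell, was the most abundant member at 80.2 and 85.6 FPKM. Its log2 ratio of 0.09 ± 0.21 has a 95% interval from -0.32 to 0.50 (1.96 implied SEs each way). Mx1 and Mx2 are dynamin-like GTPases that trap viral nucleocapsids, and the C57BL/6 strain is known to carry a defective Mx1 allele. Mx2 was at 1.38 and 0.779 FPKM, a log2 ratio of -0.82 ± 0.38, and in the authors' deposited table its adjusted p, 0.0523, was the closest to the threshold among members above it. Mx1 was listed at 0.285 and 0.0591 FPKM, without a test.

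Samhd1, Eif2ak2 and Adar were tested and not called. Samhd1, which hydrolyses the deoxynucleotides that reverse transcription needs, was at 27.0 and 26.5 FPKM, and its log2 ratio of -0.03 has a 95% interval from -0.42 to 0.37. Eif2ak2, the kinase PKR that stops translation when it meets double-stranded RNA, was at 8.74 and 7.16 FPKM (log2 ratio -0.29 ± 0.22). Adar, which deaminates adenosines in double-stranded RNA and so hides a cell's own RNA from the sensors, was at 15.2 and 13.8 FPKM (log2 ratio -0.14 ± 0.21), in a locus that another row of the table shares. Rsad2, the enzyme viperin, which makes a chain-terminating nucleotide, was listed at 0.165 and 0.0612 FPKM, without a test.

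**Figure D2:**
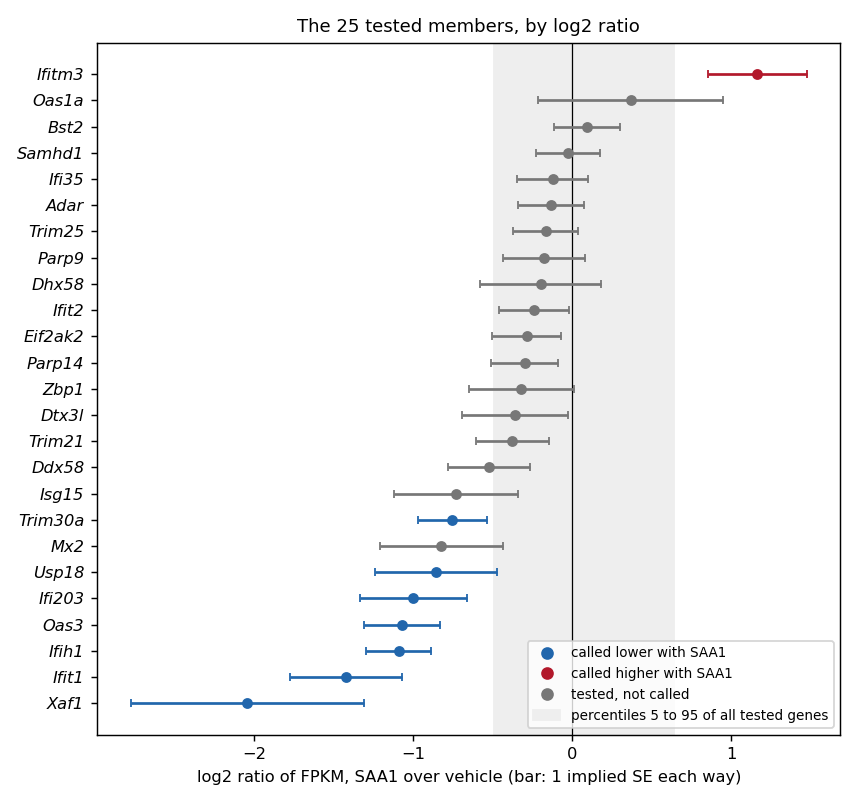
Log2 ratio of FPKM, SAA1 over vehicle, for the 25 tested members, with bars of 1 SE implied by the deposited statistic and a band for percentiles 5 to 95 of all tested genes (-0.49 to 0.64). The 7 genes called lower run from -0.76 for Trim30a to -2.04 for Xaf1, and Ifitm3 at 1.16 is the member called higher.

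All 8 protein modifiers were tested, all had the lower value with SAA1, and 2 were called lower (53.2% and 2.55% of all tested genes). Isg15, a ubiquitin-like protein joined to other proteins, was at 5.64 and 3.40 FPKM, a log2 ratio of -0.73 ± 0.39, and the authors' deposited table lists an adjusted p of 0.0981. Usp18, which takes ISG15 off its targets and also dampens signalling at Ifnar2, fell from 2.27 to 1.25 FPKM (log2 ratio -0.86 ± 0.38; adjusted p 0.0414 in the authors' deposited table). The conjugate protein and its protease thus had log2 ratios within 1 SE of each other, on either side of the threshold. Usp18 lies on chromosome 6 from 121245906 to 121270917 (mm10).

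The ubiquitin ligases of the TRIM family differed in how far they moved. Trim30a, which limits signalling from Toll-like receptors to NF-kB, fell from 14.5 to 8.58 FPKM, a log2 ratio of -0.76 ± 0.22 (adjusted p 0.00191 in the authors' deposited table). It lies on chromosome 7 from 104409026 to 104465193 (mm10), among close copies that can share reads. Trim21, the cytosolic antibody receptor, was at 9.21 and 7.10 FPKM (-0.38 ± 0.23), and Trim25, a ligase of the RIG-I pathway, at 16.2 and 14.4 FPKM (-0.17 ± 0.20). Neither was called: the authors' deposited table lists adjusted p-values of 0.176 and 0.684.

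The ADP-ribosylation genes showed small, uncalled differences in one direction. Parp9 and Dtx3l encode partners of a single complex and share a locus on chromosome 16. Parp9 was at 22.1 and 19.6 FPKM, and Dtx3l at 9.83 and 7.64 FPKM. Their log2 ratios were -0.18 ± 0.26 and -0.36 ± 0.33, and reads from one could have been counted for the other. Parp14, an enzyme that adds single ADP-ribose units, was at 7.02 and 5.71 FPKM (log2 ratio -0.30 ± 0.21), and the authors' deposited table lists p-values of 0.0442 unadjusted and 0.290 adjusted.

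Of the 4 other induced genes, 2 were tested and 1 was called lower (2.55% of all tested genes were). Xaf1, which opposes the apoptosis inhibitor XIAP, fell from 0.530 to 0.128 FPKM, a log2 ratio of -2.04 ± 0.73 (adjusted p 0.0349 in the authors' deposited table). Its level was under 1 FPKM in both groups, its SE is the largest of the 25, and with a pseudocount of 1 FPKM its log2 ratio is -0.44. Ifi35, a partner of the protein Nmi, was at 21.3 and 19.5 FPKM (-0.12 ± 0.22). Rtp4, a chaperone of membrane receptors, was listed at 0.297 and 0.108 FPKM, and Ifi44, at 0.0888 and 0.0298 FPKM, and neither was tested.

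Members called lower mostly had a mean under 5 FPKM. Of the 8 tested members with a mean of 1 to 5 FPKM, 4 were called lower (Ifit1, Oas3, Ifi203 and Usp18), and their median log2 ratio was -0.78. Over all 2141 tested genes of that level, 80 were called lower and the median was 0.01. None of the 6 members at 5 to 10 FPKM was called, with a median of -0.31 (2 of them had an unadjusted p under 0.05). Of 1638 genes at that level 49 were called lower and 90 higher, with a median of -0.01, so the absence of a call among 6 genes is near the background. Of the 9 members at 10 FPKM or more, Ifih1 and Trim30a were called lower and Ifitm3 higher, and the median was -0.14. Over 6758 genes of that level 136 were called lower and 130 higher, with a median of -0.03. Under 1 FPKM, 1 of 2 tested members (Xaf1) was called lower, against 28 of 944 genes. The group sum of all 34 members, which Bst2 dominates, was 305 FPKM with vehicle and 274 FPKM with SAA1.

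Promoters were read next for the ISRE, the element through which type I interferon acts on its targets. The members were chosen as such targets, so an excess of the ISRE over all genes can follow from that choice alone. It is therefore no evidence on the effect of SAA1. RefSeq promoter sequences on GRCm38.p6, 300 bases long with 250 before and 50 after the annotated start, matched 24 of the 34 members by symbol. The ISRE core was searched on both strands as GAAA, any 2 bases, and GAAA again. It was present for 14 of the 24 members, against 3.99% of 27025 genes and 3.44% of 32851 promoters in the same collection. By call, 5 of 6 members called lower held it, as did Ifitm3, 6 of 12 that were tested and not called, and 2 of 5 that were not tested. Xaf1 was the member called lower without these letters in its window. With CT required after the second GAAA, 7 members held the longer form, which contains the core, against 0.303% of genes. The gamma-activated sequence TTCNNNGAA, an element of the interferon gamma response, was present for 8 of the 24 members, against 9.55% of genes. Of its 8 matches, 2 overlapped an ISRE core. By call, Ifitm3 and 7 of 12 members tested and not called held this sequence. Among members called lower 0 of 6 held it, which is near the share of all genes. Dhx58, Ifi204, Mx1, Mx2, Oas2, Parp9, Parp14, Rtp4, Usp18 and Zbp1 were not analysed here for motifs.

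The stretches around the ISRE core are shown for the called members that hold it and for Ifit3, Isg15 and Bst2, so that falling, rising and flat genes can be compared. They come from RefSeq on GRCm38.p6, read 5′ to 3′ on the gene's strand, with every base of a core match in capitals (a match on the opposite strand reads TTTC, any 2 bases, TTTC). Those of Ifih1 and Ifitm3 lie just after the annotated start and the others before it.
Ifit1, chr19:34640769-34640828, plus strand: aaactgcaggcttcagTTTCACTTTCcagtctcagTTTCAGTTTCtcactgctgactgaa
Ifit3, chr19:34583359-34583418, plus strand: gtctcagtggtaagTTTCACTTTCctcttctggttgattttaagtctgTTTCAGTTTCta
Oas3, chr5:120777700-120777759, minus strand: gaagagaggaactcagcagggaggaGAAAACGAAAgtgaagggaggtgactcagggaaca
Trim30a, chr7:104465194-104465253, minus strand: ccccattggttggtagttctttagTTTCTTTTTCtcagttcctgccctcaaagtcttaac
Ifi203, chr1:173942493-173942552, minus strand: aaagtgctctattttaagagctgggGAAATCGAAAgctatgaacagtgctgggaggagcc
Isg15, chr4:156200859-156200918, minus strand: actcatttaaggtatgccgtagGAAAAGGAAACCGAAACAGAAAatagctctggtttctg
Bst2, chr8:71537563-71537622, minus strand: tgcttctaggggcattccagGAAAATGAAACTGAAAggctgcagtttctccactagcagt
Ifih1, chr2:62646206-62646232, minus strand: aagagaatcGAAACAGAAAccgatctg
Ifitm3, chr7:141010714-141010742, minus strand: GAAAAGGAAActtctgaGAAACCGAAAct

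Ifit1, which fell, and Ifitm3, which rose, each held a pair of core matches, and in both genes both matches extended to the longer form. Isg15 held 3 overlapping matches between positions -78 and -57 from its start, and Bst2, with no call, held a pair. Oas3, Trim30a and Ifi203 held a single match upstream of the start shown. The presence or number of matches thus did not separate the called from the uncalled members, and a match describes letters in a window, not binding.

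**Figure D3:**
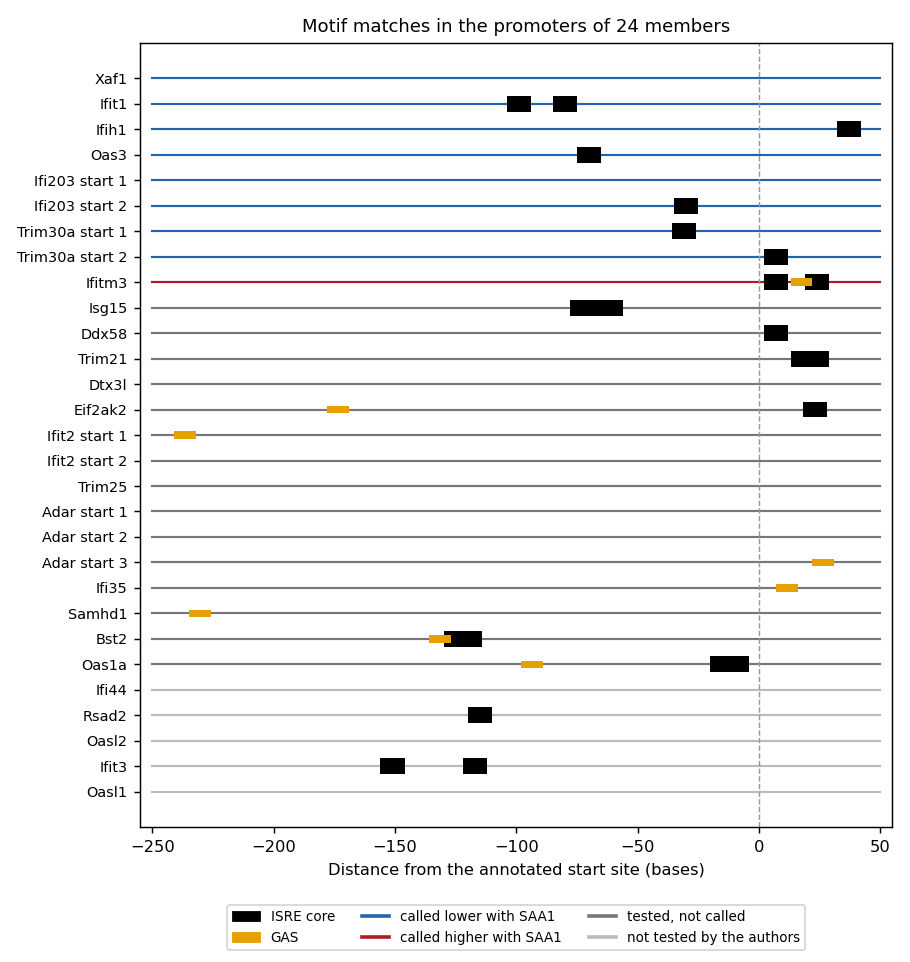
Positions of ISRE core matches (black) and gamma-activated sequence matches (amber) in bases from the annotated start for the 29 promoters of 24 members, with each line coloured by the gene's call. Of 6 members called lower, 5 have a black block, and Ifitm3 has 2 just after its start.

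Several members lie in gene clusters, where neighbours outside the list could be read beside them. Over all tested genes, 2.55% were called lower and 3.97% higher. In the HIN-200 cluster of chromosome 1, Ifi203 was called lower along with Mndal, Mnda and Pyhin1, while Aim2, a DNA sensor of the inflammasome, was at 16.4 and 13.1 FPKM and was not called. Mndal fell from 6.95 to 2.75 FPKM, a log2 ratio of -1.34 ± 0.27 (adjusted p 0.00191 in the authors' deposited table). Beside Oas3, Oas1b was called lower (4.0 to 2.35 FPKM) and Oas1c was at 2.01 and 1.82 FPKM without a call. Beside Trim30a on chromosome 7, Trim30d fell from 3.30 to 2.10 FPKM and Trim12a, whose locus another row shares, from 4.4 to 2.43 FPKM. Trim12c was at 7.18 and 5.37 FPKM and Trim34a at 3.97 and 3.11 FPKM, and neither was called. The Ifitm cluster differed from these in holding a gene called higher, Ifitm3, with Ifitm2 not called and Ifitm1 listed at 0.0613 and 0.0567 FPKM.

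Other interferon-stimulated genes outside the 34 were called in a single direction. Of 53 tested genes of a separate list of 64, 15 were called lower and 0 higher in the authors' deposited table. Over all tested genes, 2.55% were called lower and 3.97% higher. The median log2 ratio of the 53 was -0.33. At an unadjusted p under 0.05 in the same table, 25 were lower and 1 higher, against 875 and 944 of all 11481 tested genes. Samd9l, a restriction factor of poxviruses, fell from 5.99 to 2.42 FPKM (log2 ratio -1.31 ± 0.23), and Phf11b from 8.14 to 4.42 FPKM (-0.88 ± 0.30), and the authors' deposited table lists 0.00191 as the adjusted p of both. The list counts the HIN-200, Oas and Trim neighbours named above, so it is not separate from the description of the clusters.

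Of 10 tested genes of the type I receptor pathway, the authors' deposited table calls 0 by Cuffdiff's test, 1 (Irf9) had an unadjusted p under 0.05, and a normal p of the deposited statistic called 0. Stat2 was at 4.76 and 4.51 FPKM (log2 ratio -0.08 ± 0.23). Irf9, which gives the complex its DNA contact, was at 13.2 and 10.6 FPKM (-0.32 ± 0.22). The receptor chains were at 11.6 and 10.3 FPKM for Ifnar1 and at 15.1 and 16 FPKM for Ifnar2, and the list's most abundant genes were the phosphatase Ptpn6 (214 and 201 FPKM) and the feedback inhibitor Socs1 (64.5 and 63.9 FPKM). The median of the 10 was -0.08, and at the shares called over all tested genes (2.55% lower and 3.97% higher) 0 of 10 is near the background. Of 9 tested genes that lead to interferon production, 1 was called: Ikbke, a kinase that activates Irf3 and Irf7, fell from 15.8 to 11.2 FPKM (log2 ratio -0.50 ± 0.21; adjusted p 0.0182 in the authors' deposited table). None of 3 genes of the interferon gamma receptor, Ifngr1, Ifngr2 and Jak2, was called by Cuffdiff in the authors' deposited table, by an unadjusted p under 0.05 (0 genes) or by the normal p (0 genes).

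**Figure D4:**
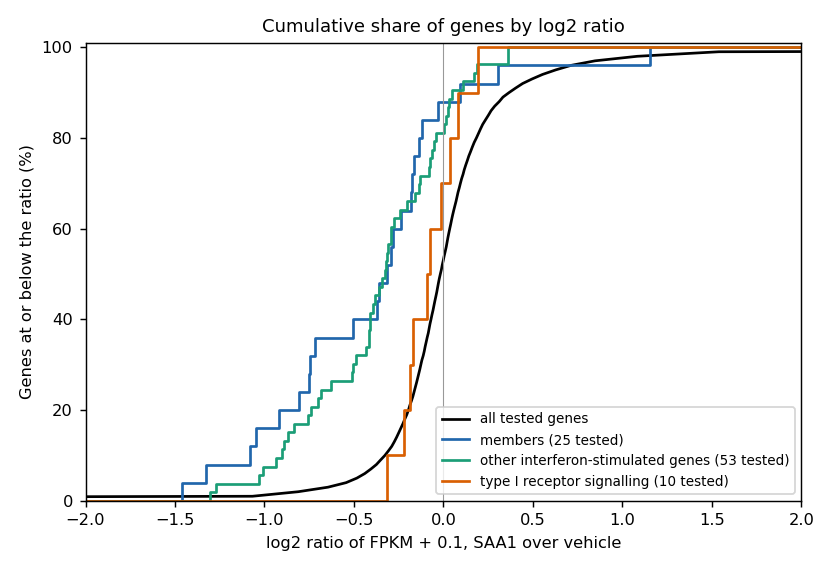
Cumulative share of genes in percent against the log2 ratio of FPKM plus 0.1, SAA1 over vehicle, for all tested genes, the 25 tested members, 53 other interferon-stimulated genes and 10 genes of type I receptor signalling. The medians are -0.02, -0.32, -0.33 and -0.08, and the curves of both target lists reach their midpoint at lower ratios than the others.

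Transcripts of the interferons themselves were at the edge of what the table lists. Of 21 interferon genes looked for, 17 had a row, 0 were tested by the authors and 7 were at 0 in both groups. The highest with vehicle were Ifnb1, the first type I interferon made after sensing, at 0.288 and 0.0754 FPKM, and Ifna13, at 0.229 and 0.106 FPKM. Ifng was listed at 0.165 and 0.101 FPKM. No statement on a change of any interferon can be made from these values.

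Markers of cells that could add interferon-stimulated transcripts to a T cell culture had low sums, except those of plasmacytoid dendritic cells. Some called members were at low levels too. The labelled T cells expressed all 6 T cell markers, which summed to 890 FPKM with vehicle and 844 FPKM with SAA1 (Cd3e called lower, Thy1 higher), and all 5 Th17 markers, each called higher with SAA1. The 12 macrophage markers summed to 2.18 and 1.48 FPKM, with C1qa, C1qb, C1qc and Marco at 0 in both groups. The 6 dendritic cell markers summed to 0.726 and 0.827 FPKM with Cd209a at 0, the 4 natural killer markers to 0.803 and 0.681 FPKM with Klrb1c at 0, and the 6 B cell markers to 3.50 and 2.34 FPKM. Of these 6, 5 had the lower value with SAA1 and Pax5 the higher, and 0 were called. Ebf1 was at 1.49 and 0.811 FPKM (log2 ratio -0.88 ± 0.41; adjusted p 0.0632 in the authors' deposited table). Of 6 plasmacytoid dendritic cell markers, which summed to 11.6 and 31.9 FPKM, Irf8 rose from 8.45 to 28.5 FPKM and Tcf4 from 0.954 to 1.46 FPKM, while Siglech, the defining surface receptor, was at 0.0118 and 0 FPKM. Of the remaining markers, Cox6a2 was at 0.754 and 0.290 FPKM and Pacsin1 at 1.35 and 1.69 FPKM, neither of them called, and Klk1 was listed at 0.0355 and 0 FPKM. Irf8 thus makes up most of the sum in both groups. The part of these cells in the members' values was not tested.

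The calls rest on a p-value that Cuffdiff gave, which is not the normal p of its own test statistic. For Ifi203, Cuffdiff's p was the smaller, at 0.00015 against a normal p of 0.00312. For Ifih1 and Oas3 it was the larger, at 5e-05, the smallest p deposited, against normal p-values of 1.03e-07 and 6.64e-06. The two-sided normal p was adjusted over the tested genes with a finite statistic. With it, Ifih1, Ifit1, Oas3 and Trim30a were called lower and Ifitm3 higher. By the same normal p, Ifi203, Usp18 and Xaf1 were not called, with adjusted p-values of 0.108, 0.425 and 0.161. Of the other interferon-stimulated genes 2 were then called lower, against 0.807% of the tested genes with a finite statistic. Ikbke was not called, and 4 of the 5 Th17 markers, 0 T cell markers and 1 plasmacytoid dendritic cell marker were called.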

How the data were processed

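RNA of 4 libraries of cultured Th17 cells, 2 per group by their titles, was analysed from 1 table in Cuffdiff's layout, per the file headers. TopHat2, Cuffdiff and the builds mm9 and mm10 are named in the submitters' processing notes; no source used here gives their versions or settings. The FPKM value of each group, the test statistic (a score, the log ratio over its standard error) and the p-value and adjusted p-value of each gene were deposited by the authors. The adjusted p equals a Benjamini-Hochberg adjustment over all 11481 tested genes (largest gap 5.23e-07). All loci of the 34 members overlapped the RefSeq position on GRCm38, which is mm10. Starts are counted from 1, and an interval holds introns.

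Log2 ratios of members are SAA1 over vehicle without a pseudocount, and the SE is that ratio divided by the statistic; medians use a pseudocount of 0.1 FPKM. Depth is unknown, so no counting interval is given. No source used here states a strand setting. A limma fit or count test was planned if each library had its own values; since only group values were in the table, Cuffdiff's test was used. The members, lists and tests were chosen with earlier results of these data known. All members are named; of each other list, up to 4 called genes by smallest adjusted p or, with none called, the 2 of highest level. Other non-members named, among them Ifitm1, Ifitm2, Aim2, Mnda, Pyhin1, Oas1b, Oas1c, Trim30d, Trim12c, Trim34a, Stat2, Irf9, Ifnar1, Ifnar2, Ifng and Ebf1, were chosen after their values were seen. Alternatives covered thresholds, a fold minimum, an expression minimum, the adjustment, shared loci, pseudocounts, centring and the motif; the normal p of the statistic and the median over all 34 members were added after seeing the data. The arithmetic was tested on simulated data with Python 3.11.15, numpy 2.4.6, pandas 2.3.3 and scipy 1.17.1.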

Additional observations from a re-analysis of the deposited data

How the results depend on the processing

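By the main rule 7 members were called lower, beside 2.55% of all tested genes. In what follows, the share of the genes under each rule called in the same direction stands in brackets. The count of members was 5 at an adjusted p under 0.01 (1.33%) and 10 at 0.1 (3.72%). It was 7 with a fold of at least 1.5 (1.63%) and 7 without rows that share a locus (2.87%). With at least 1 FPKM, where Xaf1 drops out, or with the adjustment over such genes, it was 6 (2.6% each). It was 4 with the normal p of the deposited statistic (0.807%). The member called higher, Ifitm3, was called under each of these 7 alternatives, beside 1.36% to 5.09% of genes. The 15 other interferon-stimulated genes called lower became 5 at an adjusted p under 0.01 (1.33%) and 2 with the normal p (0.807%). The 14 members with an ISRE core became 7 with the longer motif, which has fewer possible matches by construction. The median log2 ratio of the members stayed below 0 under all 7 alternatives run for it, though a change of pseudocount could not alter its sign. For single members, a pseudocount cannot reverse a log2 ratio, and centring only subtracted the median of all tested genes, -0.02. These alternatives therefore bear on the size of a ratio, not on its direction. A pseudocount of 1 moved Xaf1 to -0.44, Ifit1 to -0.84, Ifi203 to -0.55 and Mx2 to -0.42. No paired analysis was possible because the table gives 1 value per group, and for the same reason no replicate was left out. How far depth limits the 9 untested genes cannot be given.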

Other observations

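The Schlafen genes, interferon-inducible regulators of T cell growth that stand in the list of other interferon-stimulated genes, were chosen for description after their values were seen. Slfn2 was at 235 and 237 FPKM, Slfn3 at 10.3 and 7.19 FPKM and Slfn5 at 6.96 and 8.97 FPKM with vehicle and SAA1, and the locus of Slfn5 is shared with another row. None of the Schlafen genes tested was called in the authors' deposited table by Cuffdiff at an adjusted p under 0.05, while Slfn3 (lower) and Slfn5 (higher) had unadjusted p-values of 0.00355 and 0.0128 there. Shisa5, an abundant interferon-stimulated gene, fell from 286 to 215 FPKM, and the authors' deposited table lists 0.0371 as its adjusted p.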
